A study of Mus musculus with 6 samples.

Results

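Transcripts of the translation initiation and elongation factors were examined in mouse cells labelled ADSCs (a usual short form of adipose-derived stem cells) with and without knockdown of Ifit1. The members were all genes of the deposited table whose symbol starts with Eif or Eef, leaving out the eIF2 kinases (symbols starting with Eif2ak) and the inhibitor gene Eif4ebp1. This gave 65 of 19877 genes. They were grouped by the complex in their symbol, with 7 genes in eIF1, 6 in eIF2, 5 in eIF2B, 14 in eIF3, 15 in eIF4, 4 in eIF5, 1 in eIF6 and 13 in eEF. A symbol is not a subunit, so the groups also hold enzymes, inhibitors and relatives, which are named as such where they appear.

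The study compared 3 libraries of cells treated with a scrambled hairpin and 3 libraries of cells treated with a hairpin against Ifit1, an interferon-induced RNA-binding protein that limits translation. All 6 libraries carry the genotype label WT, and each of 3 labelled batches holds 1 library of either kind. The strain, sex and age of the source animals, the way the hairpin was delivered and its position in Ifit1 are not stated in the labels, and separate cultures are not mentioned. P-values then measure only the spread between these libraries, which may be technical. The title of the series names suppression of translation as a process of interest, and the question put to the data here was which factors of the translation machinery differ in RNA level.

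Translation of an mRNA starts when eIF2, loaded with initiator tRNA and GTP, joins the small ribosomal subunit together with eIF1, eIF1A, eIF3 and eIF5. The cap-binding complex eIF4F (eIF4E, eIF4G and the helicase eIF4A) recruits the mRNA, eIF2B recharges eIF2 with GTP, and eIF5B joins the large subunit. Elongation is carried by eEF1A, which brings charged tRNAs, its exchange factor eEF1B, and eEF2, which moves the ribosome along. Control of this machinery acts in large part on proteins, by phosphorylation of eIF2 alpha and of the 4E-binding proteins, and RNA levels do not show that control.

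Ifit1 itself was lower in every library labelled as knockdown. It stood at 4.90, 3.75 and 4.97 FPKM (fragments per kilobase of gene, scaled to the library's depth) in scrambled libraries 1, 2 and 3 and at 1.76, 1.48 and 1.51 FPKM in knockdown libraries 1, 2 and 3. Libraries held between 32.2 and 40.6 M fragments, as recovered from the values. Of 10 stromal markers 9 reached a mean of 1 FPKM, and their summed level was 2394 to 2730 FPKM in scrambled and 1367 to 1685 FPKM in knockdown libraries. That sum is led by Col1a1, and of the 9 markers 7 fell, Vcam1 did not pass and Cd44 rose (0.50, limma adjusted p = 0.000243). No endothelial, adipocyte or skeletal muscle marker among the deposited genes reached 1 FPKM. Of 5 markers listed for each, all 5 endothelial ones were among those genes, but only 2 for adipocytes and 1 for skeletal muscle. Among 6 leukocyte markers only Cd68 did, and among 7 epithelial and mesothelial markers Krt19 and Msln did, with sums of 87.4 to 98.1 FPKM in scrambled and 97.0 to 97.3 FPKM in knockdown libraries. The part of these marker differences in the results was not tested.

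Most translation factors that passed the test were higher in knockdown. Of the 65 members, 59 were abundant enough to test (at least 1 FPKM in at least 3 of the 6 libraries). Of these 59 genes, 34 rose, 3 fell and 22 did not pass (limma, adjusted p under 0.05 over 10311 tested genes). The 3 that fell were Eif3c, Eif2s2 and Eef1akmt2. Members rose in 57.6% of cases, where 19.8% of all tested genes rose, and fell in 5.08%, where 31.1% of all tested genes fell. In either direction 62.7% of members were called, against 51.0% of all tested genes.

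The changes were small. Among the 37 called members the size of the log2 fold change ran from 0.08 to 0.43, and 0 members changed 2-fold. The median over the 59 tested members was 0.13, beside −0.05 over all tested genes. The values of knockdown and scrambled libraries did not overlap for 41 members, 36 with knockdown above and 5 with knockdown below. That is 69.5% of the tested members, beside 61.1% of all tested genes. Within the 3 batches, 45 of the 59 members had the same direction in all 3. The share over all tested genes is not given for this count, so it describes the members only.

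Level goes with the direction of change in these libraries, and translation factors are abundant. Of the 65 members, 27 had a mean of at least 100 FPKM, 23 lay between 10 and 100, 9 between 1 and 10, and 6 below 1 FPKM. In the class of at least 100 FPKM, 19 of 27 members rose (70.4%), beside 53.7% of all 631 tested genes of that class. Between 10 and 100 FPKM, 14 of 23 members rose (60.9%), beside 26.4% of 4732 genes. Below 10 FPKM, 1 of 9 tested members rose (11.1%), beside 9.24% of 4948 genes. Falls were fewer among members in each class: 2 of 27 (7.41%) beside 101 of 631 genes at 100 FPKM and over, 0 of 23 beside 26.4% between 10 and 100, and 1 of 9 (11.1%) beside 37.6% below 10 FPKM. No test of these differences was made.

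**Figure D1:**
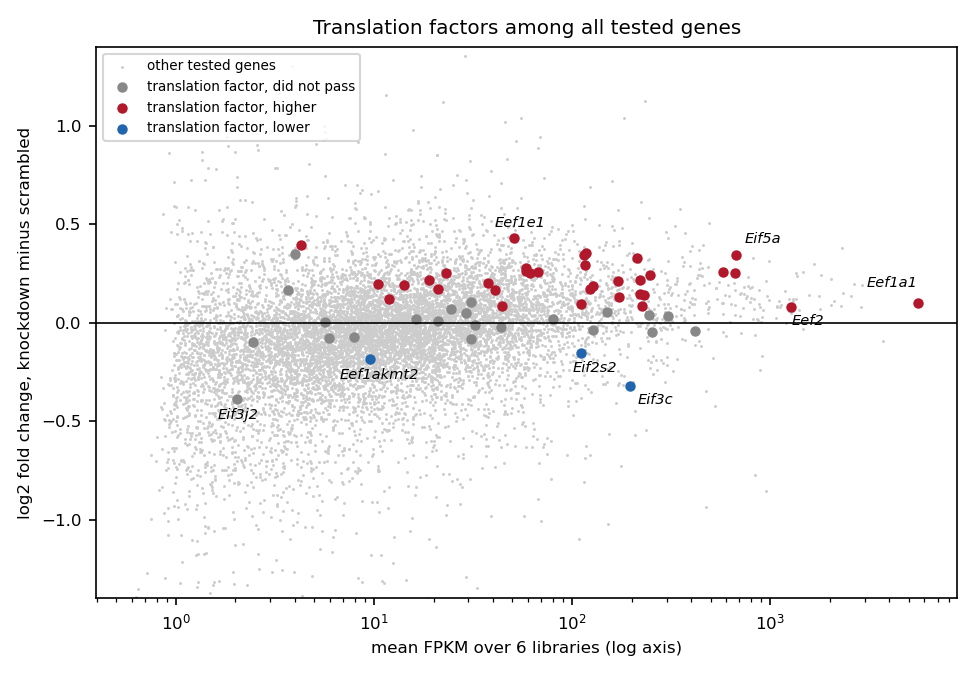
Log2 fold change (knockdown minus scrambled, vertical axis) against mean FPKM over 6 libraries (horizontal log axis) for all tested genes (small grey points) and the 59 tested translation factors (large points, coloured by call). The members lie mostly above 0 from 10 FPKM upward, with Eif3c and Eif2s2 below 0 among the abundant ones. Tested genes whose change lies beyond the ends of the vertical axis are not drawn.

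The 3 subunits of eIF2 did not move together. Eif2s1, the alpha subunit that the eIF2 kinases phosphorylate, stood at 55.3, 57.9 and 54.9 FPKM in scrambled libraries and at 68.8, 66.7 and 64.7 FPKM in knockdown libraries (libraries 1, 2 and 3 in that order, here and below). Eif2s3x, the X-linked gene of the GTP-binding gamma subunit, stood at 53.5, 53.1 and 51.8 FPKM and at 64.7, 66.3 and 61.5 FPKM. Eif2s2, the beta subunit, went the other way, with 118, 117 and 117 FPKM in scrambled and 107, 104 and 105 FPKM in knockdown libraries. Each of the 3 genes had all knockdown values on 1 side of all scrambled values.

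On the log2 scale Eif2s1 rose by 0.25 ± 0.04 (SE; adjusted p = 0.000563) and Eif2s3x by 0.28 ± 0.03 (adjusted p = 0.000316). Eif2s2 fell by 0.15 ± 0.03 (adjusted p = 0.00138). The 3 calls were kept in all 17 alternative analyses. The ratio of Eif2s2 to Eif2s1, a quantity chosen after the values were seen and given without a test, was 2.14, 2.01 and 2.13 in scrambled and 1.55, 1.56 and 1.63 in knockdown libraries. It does not depend on how a library is scaled. Eif2s2 over Eif2s3x was 2.21, 2.19 and 2.25 in scrambled and 1.65, 1.57 and 1.71 in knockdown libraries.

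Other genes of the eIF2 group are not subunits of the trimer. Eif2a, an unrelated protein that can bind initiator tRNA, stood at 29.5, 29.1 and 30.5 FPKM and at 33.3, 30.5 and 32.2 FPKM, and did not pass (0.10 ± 0.04, adjusted p = 0.0570). With batch as a block it passed (adjusted p = 0.0479; 0.00726 to 0.233 over the alternatives). Eif2a was also called higher under median centring, with limma-voom and without knockdown library 2. Eif2d, a factor of ribosome recycling and reinitiation, had a log2 fold change of −0.10 ± 0.07 (adjusted p = 0.266). Eif2s3y, the Y-linked copy of the gamma subunit gene, was too low to test, with 0.396, 0.389 and 0.363 FPKM in scrambled and 0.0713, 0.182 and 0.0729 FPKM in knockdown libraries. It is near-identical in coding sequence to Eif2s3x, so its few fragments (24 to 148 per library) may be split uncertainly. Without the filter on low values it was lower (−0.54 ± 0.08, adjusted p = 0.00559). The Y-linked genes Ddx3y, Kdm5d and Uty were also lower in every knockdown library. Ddx3y went from 1.06 ± 0.213 to 0.355 ± 0.0660 FPKM, Kdm5d from 0.472 ± 0.0816 to 0.111 ± 0.0417 and Uty from 0.208 ± 0.0695 to 0.0624 ± 0.0212 FPKM (SD, n = 3 each). Whether the groups differ in their share of male cells was not tested.

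Of the 5 subunits of eIF2B, the exchange factor that recharges eIF2, 3 rose and 2 did not pass. All 5 had a mean between 10 and 100 FPKM, where 26.4% of all tested genes rose. Eif2b1, the regulatory alpha subunit, went from 17.4, 17.8 and 17.2 FPKM to 20.4, 20.4 and 20.3 FPKM (0.22 ± 0.03, adjusted p = 0.000911). Eif2b5, the catalytic epsilon subunit, went from 38.0, 39.8 and 37.5 FPKM to 42.1, 43.6 and 43.8 FPKM (0.17 ± 0.03, adjusted p = 0.00424). Both had separated groups, and both calls held in all 17 alternatives. Eif2b3, the gamma subunit, had overlapping groups, with 9.81, 10.4 and 9.13 FPKM in scrambled and 11.7, 10.1 and 12.03 FPKM in knockdown libraries. It rose by 0.20 ± 0.07 (adjusted p = 0.0446), but the batch differences were 0.24, −0.03 and 0.38, and the call was lost with batch as a block (adjusted p = 0.0719; 0.0105 to 0.143 over the alternatives). Leaving out scrambled library 1 or 3 or knockdown library 1 or 3, rescaling to TPM (every library has the same total), dropping the filter, or fitting limma without its trend also ended it. For Eif2b2 the estimate was 0.05 (95% interval −0.04 to 0.14) and for Eif2b4 0.02 (−0.11 to 0.15).

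**Figure D2:**
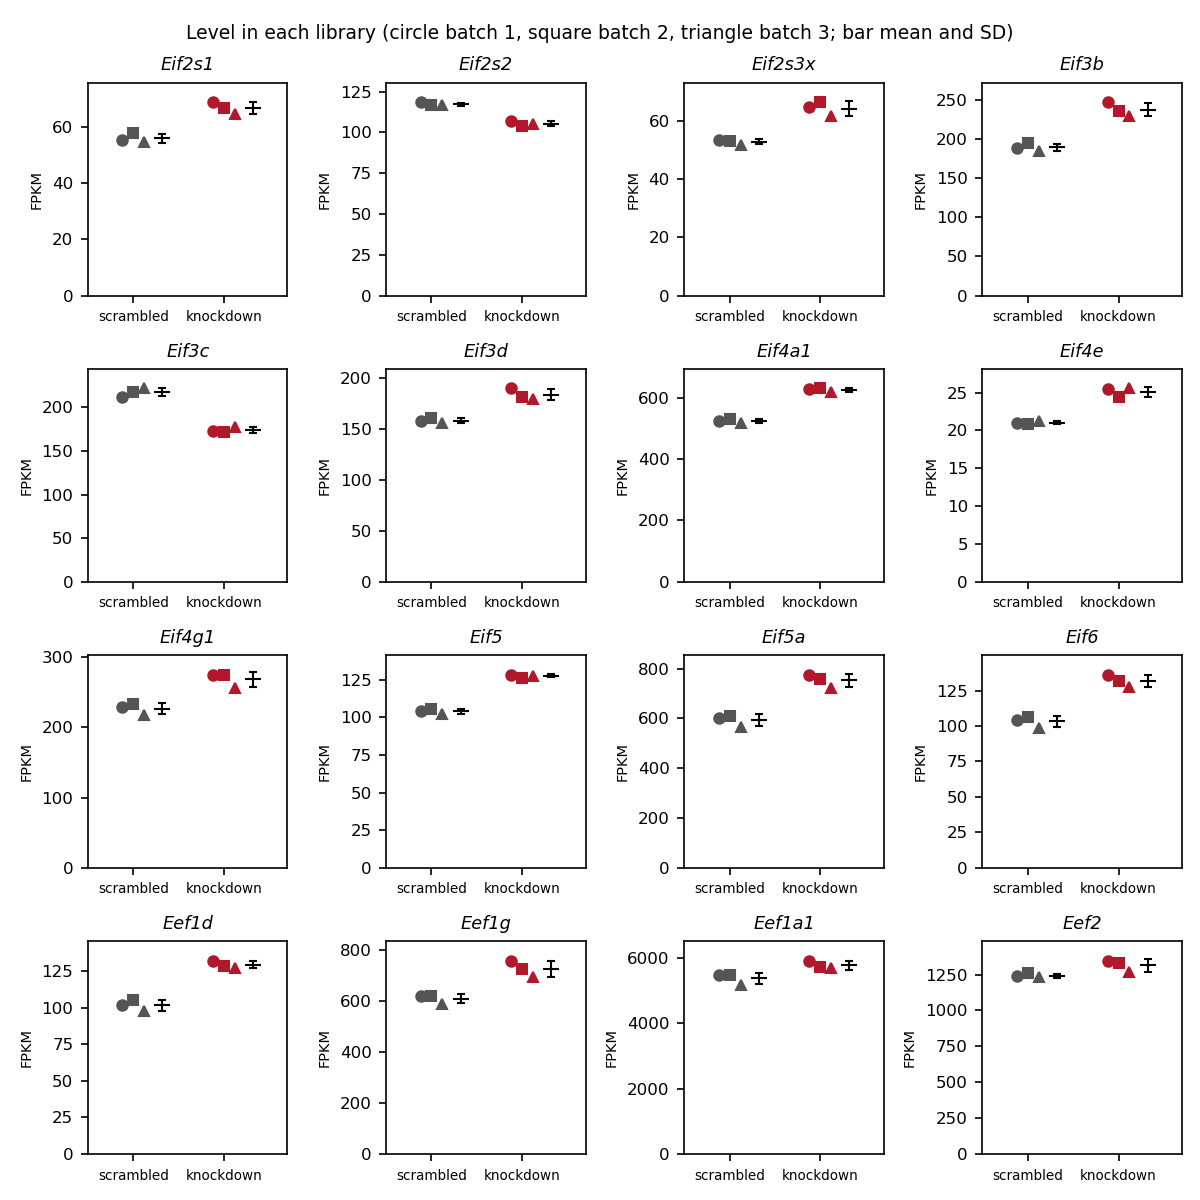
FPKM (vertical axes, each from 0) of 16 translation factors in the 3 scrambled (grey) and 3 knockdown libraries (red), with the batch shown by the symbol and the mean and SD of each group as a black bar. Eif2s2 and Eif3c are lower in all 3 knockdown libraries, and the other 14 genes are higher in all 3.

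eIF3, the largest initiation factor, had members in both directions. It is the scaffold that holds the small subunit, eIF4F and the other factors together. Of 14 genes, 8 rose (57.1%), 1 fell and 5 did not pass, with a median log2 fold change of 0.09. Most of these genes lie at 100 FPKM and over, where 53.7% of all tested genes rose, with a median of 0.09. The count and median of eIF3 are near those values and describe its genes only. Eif3b stood at 188, 195 and 185 FPKM in scrambled and at 247, 236 and 230 FPKM in knockdown libraries. Eif3c stood at 213, 218 and 222 FPKM in scrambled and at 173, 171 and 178 FPKM in knockdown libraries. The groups were separated for both, in opposite directions, although both encode core subunits of the complex.

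Eif3b rose by 0.33 ± 0.03 (adjusted p = 0.000130), with batch differences of 0.39, 0.27 and 0.31. Eif3c fell by 0.32 ± 0.03 (adjusted p = 6.64e-05), with batch differences of −0.30, −0.35 and −0.32. Over the 17 alternatives Eif3b ran from 0.24 to 0.39 and Eif3c from −0.41 to −0.25, and neither lost its call. The ratio of Eif3c to Eif3b, chosen after the values were seen and not tested, was 1.13, 1.12 and 1.20 in scrambled and 0.699, 0.727 and 0.774 in knockdown libraries. Eif3c was thus the more abundant transcript per length in scrambled libraries and the less abundant in knockdown libraries.

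Eif3d, a subunit that can itself contact the cap of some mRNAs, went from 158, 161 and 156 FPKM to 190, 182 and 179 FPKM (0.21 ± 0.03, adjusted p = 0.000542). The other members that rose were Eif3j1 (0.26), Eif3g (0.19), Eif3l (0.15), Eif3i (0.13), Eif3m (0.10) and Eif3e (0.09). Eif3g, Eif3d and Eif3j1 kept their calls in all 17 alternatives. Eif3e lost its call in 7 of the alternatives, Eif3m in 8, Eif3i in 2 and Eif3l in 1. Eif3a (0.06), Eif3h (0.03), Eif3k (0.02) and Eif3f (−0.04) did not pass. Their 95% intervals lay between −0.13 and 0.12, so changes as large as that of Eif3b are outside them.

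Eif3j2 is the exception in its spread. It stood at 1.32, 1.08 and 5.42 FPKM in scrambled and at 1.58, 1.61 and 1.23 FPKM in knockdown libraries, and scrambled library 3 alone was high. Its log2 fold change of −0.39 ± 0.42 (adjusted p = 0.464) turned to 0.21 without that library. Its near-identical copy Eif3j1 was lowest in the same library, with 54.4, 56.3 and 48.6 FPKM in scrambled and 65.1, 62.6 and 63.2 FPKM in knockdown libraries. Reads may be divided between the 2 copies differently from library to library, which was not tested. Eif3j1 rose by 0.26 ± 0.05 (adjusted p = 0.00306), and its call held without scrambled library 3.

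All 5 genes of the subunits of eIF4F rose. The 5 lie in the classes from 10 FPKM upward, where 26.4% (10 to 100) and 53.7% (100 and over) of all tested genes rose. Eif4a1, the main helicase subunit, stood at 524, 529 and 518 FPKM in scrambled and at 628, 631 and 619 FPKM in knockdown libraries. Its relative Eif4a2 stood at 61.6, 61.4 and 61.0 FPKM and at 72.9, 75.1 and 71.8 FPKM. The cap-binding subunit Eif4e stood at 20.9, 20.9 and 21.3 FPKM and at 25.5, 24.4 and 25.6 FPKM. Knockdown values lay above scrambled values for each of the 3, with gaps wider than the SD of either group.

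The scaffold gene Eif4g1 went from 229, 232 and 218 FPKM to 274, 275 and 256 FPKM. Its relative Eif4g3 went from 11.7, 11.7 and 10.95 FPKM to 12.5, 12.6 and 12.2 FPKM. The rise was 0.26 ± 0.02 for Eif4a1 (adjusted p = 7e-05), 0.26 ± 0.03 for Eif4a2 (0.000183), 0.25 ± 0.03 for Eif4e (0.000495), 0.24 ± 0.04 for Eif4g1 (0.000891) and 0.12 ± 0.04 for Eif4g3 (0.0411). Summed over the 5 genes, the level was 828 to 856 FPKM in scrambled and 984 to 1018 FPKM in knockdown libraries. The call of Eif4g3 was lost after rescaling to TPM, with no filter on low values, and without any of scrambled libraries 1, 2 and 3 or knockdown libraries 1 and 2 (adjusted p 0.00664 to 0.159 over the alternatives). The other 4 calls held in all 17 alternatives.

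In the eIF4 group as a whole, 8 of 13 tested genes rose (61.5%), 0 fell and 5 did not pass. Of all tested genes 19.8% rose and 31.1% fell. Besides eIF4F, Eif4g2 rose, which encodes a relative of eIF4G that cannot bind eIF4E. It went from 207, 204 and 198 FPKM to 242, 236 and 231 FPKM (0.22 ± 0.03, adjusted p = 0.000419). Eif4e2, a cap-binding relative of eIF4E known as a translational repressor, went from 12.8, 13.0 and 13.7 FPKM to 15.6, 15.1 and 14.6 FPKM (0.19 ± 0.04, adjusted p = 0.00595). Eif4a3, the helicase of the exon junction complex, rose by 0.17. The 2 helper proteins of the helicase did not pass, with 0.04 (95% interval −0.01 to 0.09) for Eif4h and −0.05 (−0.10 to 0.01) for Eif4b. Eif4b was lower under 3 of the rescalings (adjusted p from 0.00385 over the alternatives) and its sign turned under median centring. The inhibitors Eif4ebp2 (−0.02) and Eif4ebp3 (0.00) and the eIF4E-transporter gene Eif4enif1 (0.07) did not pass either. Eif4e3 and Eif4a3l1 were below the filter, with at most 0.768 and 0.0172 FPKM in a library.

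Short stretches before the start of 8 members are shown because Eif4a1, Eif4e and Eif4g1, 1 gene of each eIF4F subunit, all hold the letters CACGTG there. This is the E-box, a sequence that MYC and related factors can bind. The sequences are from RefSeq on GRCm38.p6, 5′ to 3′ on the gene's strand, with the motif in capitals. The first 6 are all the members that rose and hold the motif. The last 2 belong to members that did not pass, of which 7 hold it. Eif4a2 and Eif4g3 of eIF4F also rose, and their windows hold no CACGTG.
Eif4a1, chr11:69672587-69672632, minus strand, 189 bases before the start: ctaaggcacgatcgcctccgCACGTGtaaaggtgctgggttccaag
Eif4e, chr3:138527020-138527229, plus strand, 228 and 64 bases before the start: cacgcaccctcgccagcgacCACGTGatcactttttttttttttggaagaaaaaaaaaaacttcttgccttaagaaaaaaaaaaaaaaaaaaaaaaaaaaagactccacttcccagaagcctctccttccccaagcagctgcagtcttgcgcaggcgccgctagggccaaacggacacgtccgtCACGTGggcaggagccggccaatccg
Eif4g1, chr16:20672653-20672698, plus strand, 54 bases before the start: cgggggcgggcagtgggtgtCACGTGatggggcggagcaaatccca
Eif5a, chr11:69920783-69920828, minus strand, 178 bases before 1 of its starts: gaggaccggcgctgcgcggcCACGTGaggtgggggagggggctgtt
Eif5a2, chr3:28781115-28781185, plus strand, 142 and 117 bases before the start: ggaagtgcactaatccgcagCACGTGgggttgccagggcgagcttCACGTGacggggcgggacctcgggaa
Eef2, chr10:81176568-81176613, plus strand, 43 bases before the start: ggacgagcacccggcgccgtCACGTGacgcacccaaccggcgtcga
Eif3f, chr7:108934327-108934372, plus strand, 68 bases before the start: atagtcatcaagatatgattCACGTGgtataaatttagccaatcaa
Eif4h, chr5:134639480-134639525, minus strand, 96 bases before the start: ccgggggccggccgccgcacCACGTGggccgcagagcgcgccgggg

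Of the 65 members, 49 had a window in the table (250 bases before and 50 from an annotated start). CACGTG, which reads the same on both strands, was in a window of 13 of 47 tested members (27.7%), beside 12.3% of 8239 tested genes and 8.09% of all 27025 genes with a window. Genes can have several starts, on average 1.30 windows for the tested members and 1.27 for the tested genes. The motif did not follow the direction of change: 6 of 26 members that rose held it (23.1%), 7 of 18 that did not pass (38.9%) and 0 of 3 that fell. A match is a description of the letters and not a binding site.

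A second feature, known from mRNAs of the translation machinery, is a pyrimidine tract at the 5′ end (the TOP motif), through which mTORC1 controls their translation. The search was for a C within 10 bases of an annotated start, on the gene's strand, that opens at least 7 successive pyrimidines. The base before that C was not checked, so the stretch can lie inside a longer run of pyrimidines. Such a stretch stood in 10 of 47 tested members (21.3%), beside 15.1% of tested genes. It was in 5 of 26 members that rose (19.2%), in 4 of 18 that did not pass (22.2%) and in 1 of 3 that fell (33.3%). Annotated starts can be off by some bases, so true 5′ ends may be missed. A few starts are shown for comparison, with the counted stretch in capitals, of which Eef1a1 and Eif2s3x rose and Eif3f did not pass. In Eif2s3x further pyrimidines stand directly before the counted stretch.
Eef1a1, chr9:78481707-78481736, minus strand: ggctccgCCCTCTTCCCgagggtgggggag
Eif2s3x, chrX:94212634-94212663, minus strand: ccgagcattttCCTTTTCTCTCCgagcaag
Eif3f, chr7:108934403-108934432, plus strand: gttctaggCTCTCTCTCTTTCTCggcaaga

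The eIF5 and eIF6 genes had some of the largest rises among the members. Eif5, which triggers GTP hydrolysis by eIF2 when the start codon is found, stood at 105, 106 and 102 FPKM in scrambled and at 129, 127 and 128 FPKM in knockdown libraries. Eif5a, whose protein carries the modified residue hypusine and helps elongation and termination, stood at 602, 610 and 567 FPKM and at 776, 757 and 724 FPKM. Eif5a2, its low-abundance relative, stood at 3.72, 3.88 and 3.30 FPKM and at 5.02, 4.84 and 4.93 FPKM. Knockdown values lay above scrambled values for all 3 genes.

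Eif5 rose by 0.29 ± 0.03 (adjusted p = 6.85e-05), Eif5a by 0.34 ± 0.04 (0.000143) and Eif5a2 by 0.40 ± 0.07 (0.00127). Eif5b, which joins the ribosomal subunits, did not pass, at 0.01 with a 95% interval of −0.07 to 0.09. Eif6, which keeps the large subunit from joining too early and takes part in its maturation, went from 105, 107 and 98.6 FPKM to 136, 132 and 128 FPKM. It rose by 0.35 ± 0.04 (adjusted p = 0.000146). The calls of Eif5, Eif5a, Eif5a2 and Eif6 held in every alternative in which they were tested.

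In the eIF1 group 3 of 5 tested genes rose (60.0%, beside 19.8% of all tested genes) and 2 did not pass. Eif1ax, the X-linked gene of eIF1A, a factor of scanning, went from 35.3, 35.9 and 33.6 FPKM to 40.3, 39.9 and 40.3 FPKM (0.20 ± 0.03, adjusted p = 0.00144). Its relative Eif1a went from 43.2, 43.6 and 41.7 FPKM to 45.1, 45.9 and 45.4 FPKM. That rise of 0.09 ± 0.03 (adjusted p = 0.0435) was lost in 11 of 17 alternatives, among them the batch block (0.0520) and the omission of any single library (0.00453 to 0.285 over all of them). Eif1ad, an eIF1A-like protein, went from 19.7, 20.4 and 19.5 FPKM to 22.2, 21.6 and 23.5 FPKM (0.17 ± 0.04, adjusted p = 0.00854). Eif1, which guards start codon choice, did not pass. It had 421, 421 and 434 FPKM in scrambled libraries beside 404, 415 and 420 FPKM in knockdown libraries, all slightly lower (−0.04 ± 0.03, adjusted p = 0.207). Eif1 was called lower after rescaling to TPM, under quantile normalization and with the trend removed, and its sign turned under median centring (−0.19 to 0.02, adjusted p 0.000704 to 0.477 over the alternatives). Eif1b did not pass either, with 35.1, 30.4 and 31.8 FPKM beside 32.6, 30.7 and 33.2 FPKM (−0.01 ± 0.05, adjusted p = 0.876). The relatives Eif1ad3 and Eif1ad8 had at most 4 fragments in a library.

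**Figure D3:**
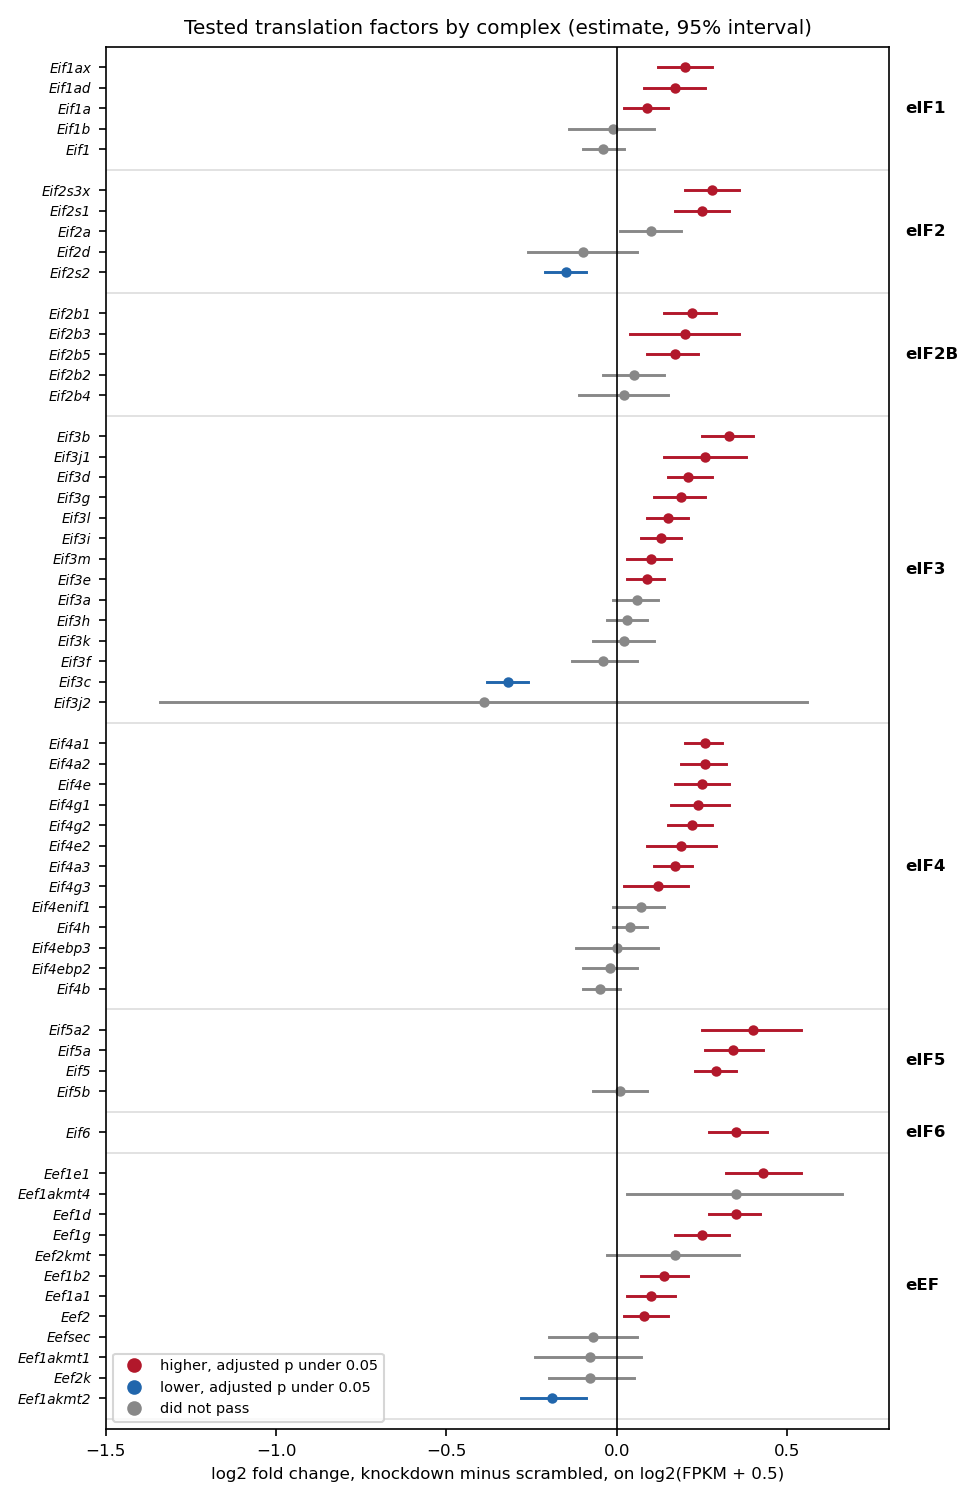
Log2 fold change (horizontal axis, knockdown minus scrambled) with 95% interval for the 59 tested members, grouped by complex. The 34 red genes are higher, the 3 blue genes lower, and the 22 grey genes did not pass. The interval of Eif3j2, from −1.34 to 0.56, is the widest.

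All 5 core elongation factor genes rose, by amounts from 0.08 to 0.35. Each had a mean of at least 100 FPKM, a class in which 53.7% of all tested genes rose. Eef1a1, which carries charged tRNAs to the ribosome, had the highest FPKM of all genes in all 6 libraries, with 5468, 5468 and 5175 in scrambled and 5911, 5706 and 5676 in knockdown libraries. It alone made up 40.0 to 40.9% of the summed FPKM of the members in scrambled and 39.6 to 40.1% in knockdown libraries. Eef2, the translocase, stood at 1238, 1258 and 1230 FPKM and at 1347, 1329 and 1266 FPKM. The groups did not overlap for either gene, though for Eef2 the lowest knockdown value, 1266, was close to the highest scrambled value, 1258.

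Eef1a1 rose by 0.10 ± 0.03 (adjusted p = 0.0200) and Eef2 by 0.08 ± 0.03 (adjusted p = 0.0421). Both calls depended on the scaling. After rescaling to TPM, with no filter, or in limma without its trend neither passed, and with the trend in level and length removed Eef1a1 stood at −0.01 and Eef2 was not called. Quantile normalization put Eef1a1 at 0, which it must for a gene of highest rank in every library, and turned the sign of Eef2, to a value near 0. The call of Eef1a1 was also lost without knockdown library 1 or 2, and that of Eef2 without any of scrambled libraries 1, 2 and 3 or knockdown libraries 1 and 2. Adjusted p ran from 0.00445 to 1 for Eef1a1 and from 0.00705 to 0.904 for Eef2 over the alternatives. Processed pseudogenes of Eef1a1 are numerous, so the assignment of its reads is uncertain.

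The 3 subunits of eEF1B, which reloads eEF1A with GTP, rose too. Eef1d went from 102, 105 and 98.0 FPKM to 132, 128 and 127 FPKM (0.35 ± 0.03, adjusted p = 9.54e-05). Eef1g went from 617, 620 and 589 FPKM to 757, 726 and 692 FPKM (0.25 ± 0.04, adjusted p = 0.000712). Eef1b2 went from 225, 218 and 215 FPKM to 247, 246 and 234 FPKM (0.14 ± 0.03, adjusted p = 0.00496). The groups were separated for the 3 genes, and the call of Eef1b2 was lost under quantile normalization and with the trend removed. Eef1e1 shares its name with this group but encodes a scaffold protein of the multisynthetase complex. It had the largest log2 rise of all called members, from 45.1, 44.1 and 40.9 FPKM to 61.5, 58.8 and 55.2 FPKM (0.43 ± 0.05, adjusted p = 0.000220).

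Among the enzymes that modify elongation factors 1 of 5 passed the test, and they were not tested against the factors themselves. Of the 5 genes, 0 rose, 1 fell and 4 did not pass. Most of them had a mean below 10 FPKM, where 9.24% of all tested genes rose and 37.6% fell. Eef1akmt2, a lysine methyltransferase of eEF1A, went from 10.2, 9.94 and 10.6 FPKM to 8.95, 8.99 and 8.87 FPKM. It fell by 0.19 ± 0.04 (adjusted p = 0.00641), a call that was lost under quantile normalization, with the trend removed and with limma-voom (0.00268 to 0.129 over the alternatives). Eef2k, the kinase that inhibits eEF2, was at −0.08 ± 0.06 (adjusted p = 0.282). The methyltransferase genes Eef1akmt1 (−0.08) and Eef2kmt (0.17) did not pass. Eef2kmt was called higher under median centring, quantile normalization and trend removal and without knockdown library 2 (0.08 to 0.35, adjusted p 0.00602 to 0.391 over the alternatives). Eef1akmt4 had 3.30, 3.80 and 3.18 FPKM in scrambled and 5.34, 4.94 and 3.41 FPKM in knockdown libraries, with overlapping groups. It did not pass (0.35 ± 0.14, adjusted p = 0.0640) but did so with batch as a block (0.0262) and without knockdown library 3 (0.00112; 0.00112 to 0.199 over the alternatives). Eef1akmt4 was also called higher under median centring, quantile normalization and trend removal. Eefsec, which brings selenocysteine, was at −0.07 (adjusted p = 0.326), and Eef1akmt3 was below the filter with 0.333 to 1.20 FPKM.

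Ratios between 2 related genes within a library do not change when the whole library is multiplied by 1 factor. The 0.5 added to each FPKM makes this approximate for low genes, and quantile normalization can change the ratios. Of 11 pairs listed, 10 had both genes tested, and the pair with Eef1a2 did not. An exact two-sided permutation test of 3 libraries against 3 cannot go below p = 0.1, so no pair could pass. The ratio was separated between the groups for 4 of the 10 pairs (exact p = 0.1, adjusted over the 10 pairs 0.25). Eif4g1 over Eif4g3 rose from a log2 ratio of 4.25 ± 0.0136 to 4.37 ± 0.0407 (SD, n = 3 each), and Eif1a over Eif1ax went from 0.29 ± 0.0140 to 0.18 ± 0.0209. Eef1b2 over Eef1d went from 1.11 ± 0.0557 to 0.90 ± 0.0305, and Eif2s1 over Eif2a, which are not paralogs but are easily confused by name, from 0.90 ± 0.0719 to 1.05 ± 0.0627. For Eif4a1 over Eif4a2 the log2 ratio was 3.08, 3.10 and 3.08 in scrambled and 3.10, 3.06 and 3.10 in knockdown libraries, with no difference beyond the spread (exact p = 1). Eif5a over Eif5a2 (exact p = 0.4), Eif4e over Eif4e2 (0.2), Eif4g1 over Eif4g2 (0.4), Eif1 over Eif1b (0.8) and Eif3j1 over Eif3j2 (0.5) also overlapped.

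The size of the difference between members and all genes depended on the scaling of the libraries, but the direction of the count did not. After rescaling to TPM 27 of 61 tested members rose and 5 fell. Of 59 tested members, 42 rose and 3 fell after median centring, and 28 and 4 under quantile normalization. Once the trend in level and length was taken out, 30 of 59 rose and 4 fell. The share of all tested genes that rose was 19.8% on the deposited FPKM, 13.8% on TPM and 29.1% after median centring. It was 24.1% when quantile-normalized and 25.0% without the trend. Among the calls over all tested genes, a different measure, the share that were higher was 38.9% on the deposited FPKM and 26.5% on TPM. That share was 56.7% after median centring, 52.4% when quantile-normalized and 53.5% without the trend. In every one of the 17 alternatives in which they were tested, 24 of the 34 members that rose were called higher, and Eif3c and Eif2s2 were called lower.

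**Figure D4:**
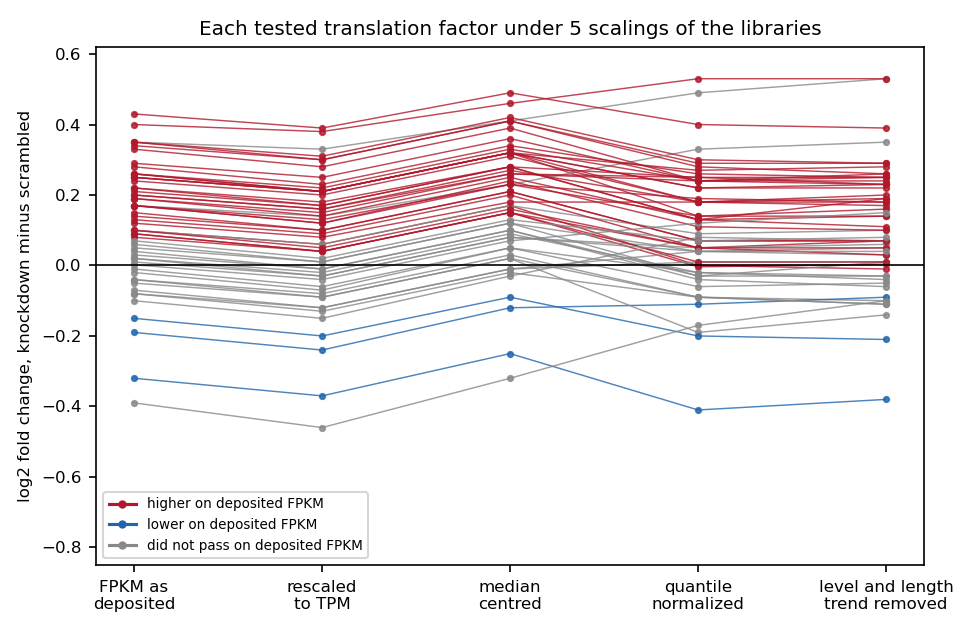
Log2 fold change (vertical axis, knockdown minus scrambled) of each of the 59 tested members under 5 scalings of the libraries (horizontal axis), 1 line per gene, coloured by its call on the deposited FPKM. Median centring shifts nearly all lines up, and quantile normalization and trend removal bring some of the red lines, such as Eef1a1 and Eef2, to about 0.

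Summed over all 65 members, the translation factors made up 3.42 to 3.54% of a library's FPKM in scrambled and 3.63 to 3.76% in knockdown libraries. The sum for eEF genes was 7410 to 7781 FPKM in scrambled and 8113 to 8515 FPKM in knockdown libraries. For eIF3 it was 2080 to 2114 and 2195 to 2257 FPKM, and for eIF4 1727 to 1768 and 1926 to 1976 FPKM. For eIF5 it was 693 to 741 and 878 to 930 FPKM, and for eIF1 it overlapped, with 551 to 560 and 544 to 563 FPKM.

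The genes around this machinery were read from 8 lists with 57 genes, all tested, of which 21 rose, 14 fell and 22 did not pass, where 19.8% of all tested genes rose and 31.1% fell. With so few genes in a list, its counts describe those genes only. Of 6 eIF2 kinases and phosphatase subunits, 0 rose and 4 fell. Eif2ak2, the kinase PKR, which double-stranded RNA activates and interferon induces, went from 11.1, 10.2 and 12.2 FPKM to 8.23, 7.45 and 8.77 FPKM (−0.43 ± 0.08, adjusted p = 0.00179). Eif2ak4, the amino acid sensor GCN2, went from 9.95, 10.2 and 10.3 FPKM to 8.19, 8.69 and 8.91 FPKM (−0.23 ± 0.05, adjusted p = 0.00348). Ppp1r15b, a subunit that directs a phosphatase to eIF2 alpha, went from 28.8 ± 0.331 to 25.9 ± 0.219 FPKM (SD, n = 3 each; −0.15 ± 0.03, adjusted p = 0.00354). Eif2ak3, the kinase PERK of the endoplasmic reticulum, also fell (−0.29 ± 0.07, adjusted p = 0.00674), a call lost under quantile normalization and with the trend removed. Eif2ak1 (0.05) and Ppp1r15a (−0.11) did not pass. Eif2s1 rose, while 3 of the 4 kinase genes for its product fell. Those 3 had means below 10 FPKM over the 6 libraries, where 37.6% of all tested genes fell and 9.24% rose.

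Of 9 genes that control eIF4F, 0 rose and 4 fell, beside the 31.1% of all tested genes that fell. Eif4ebp1, the 4E-binding protein whose release from eIF4E is driven by mTORC1, went from 221, 220 and 231 FPKM to 178, 186 and 181 FPKM (−0.30 ± 0.03, adjusted p = 0.000112). Pdcd4, an inhibitor of eIF4A, went from 2.91, 2.93 and 3.16 FPKM to 1.64, 1.72 and 2.23 FPKM (−0.57 ± 0.10, adjusted p = 0.00156). Mknk1, a kinase of eIF4E, went from 5.51, 5.26 and 6.61 FPKM to 3.94, 4.37 and 3.79 FPKM (−0.47 ± 0.09, adjusted p = 0.00230). Rptor fell by 0.12 (adjusted p = 0.0360) and lost that call with batch as a block (0.0569), under median centring, quantile normalization and trend removal, and without scrambled library 1 or 2 or knockdown library 1 or 2. The list holds inhibitors and activators alike, and Mtor (−0.10), Mknk2 (−0.03), Rps6kb1 (0.00), Rps6kb2 (−0.09) and Cyfip1 (−0.03) did not pass.

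Among 8 poly(A)-binding proteins and partners, 4 rose and 2 fell. Pabpc4 went from 41.5, 42.6 and 39.8 FPKM to 59.5, 55.2 and 53.1 FPKM (0.43 ± 0.05, adjusted p = 0.000140), and Pabpc1 from 603, 608 and 612 FPKM to 718, 683 and 697 FPKM (0.20 ± 0.03, adjusted p = 0.000347). Paip2, an inhibitor of poly(A)-binding protein, went from 29.9, 27.7 and 28.2 FPKM to 22.2, 22.5 and 23.2 FPKM (−0.33 ± 0.04, adjusted p = 0.000250). Of 7 helicases and recycling factors, 5 rose and 0 fell, among them Abce1, which splits ribosomes after termination (0.30 ± 0.03, adjusted p = 0.000112), the helicase Ddx3x (0.23 ± 0.03, 0.000231) and Denr (0.20 ± 0.04, 0.00192). The release factor genes Gspt1 (0.19 ± 0.03, adjusted p = 0.000770) and Etf1 (0.18 ± 0.03, 0.00111) rose, and Gspt2 did not pass (−0.11).

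The enzymes behind 2 modified residues of the factors were also read. Of 8 hypusine and diphthamide enzymes, 5 rose and 0 fell. Dhps and Dohh, which make the hypusine of eIF5A, rose by 0.24 ± 0.04 (adjusted p = 0.00164) and 0.32 ± 0.07 (0.00566), and Dph3, of the diphthamide of eEF2, by 0.32 ± 0.04 (0.000265). Of 6 selenocysteine genes, 2 rose and 2 fell, with Pstk at −0.36 ± 0.05 (adjusted p = 0.000700), Secisbp2l at −0.24 ± 0.05 (0.00370) and Sephs2 at 0.15 ± 0.04 (0.0101). Of 10 mitochondrial translation factors, 3 rose and 2 fell, with Gfm1 at 0.28 ± 0.03 (adjusted p = 0.000143), Tufm at 0.18 ± 0.04 (0.00341) and Tsfm at 0.17 ± 0.05 (0.0170). The 2 that fell were Mtif2 (−0.20 ± 0.07, adjusted p = 0.0449) and Mtif3 (−0.20 ± 0.07, adjusted p = 0.0464), named because the count is small. Mtif3 lost its call with batch as a block (0.0702), and both lost theirs with no filter, under median centring, quantile normalization and trend removal, and without scrambled library 1 or 3 or knockdown library 1. Mtif2 also lost it without knockdown library 2, and Mtif3 without scrambled library 2 or knockdown library 3.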

How the data were processed

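RNA from 6 libraries was sequenced, 3 per group. The authors deposited 1 table of FPKM per gene and library. Per the submitters' processing notes the builds GRCm38, mm10 and GRCm39 were used, with no role given. No aligner, counter or strand setting is named in the labels, so overlapping reads of opposite strands cannot be told apart: exons of 17 of 62 members found in GENCODE M21 overlap a gene on the opposite strand.

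Whole fragments recovered from the FPKM fitted all 19877 genes within 0.002 of a whole number. Tested members had 98 to 412044 fragments in a library. Genes with at least 1 FPKM in at least 3 of 6 libraries (10311 genes) were compared as log2(FPKM + 0.5) with limma 3.58.1 in R 4.3.3 (trend on the mean, two-sided), with Benjamini-Hochberg adjustment over all tested genes and a threshold of 0.05. This scale understates changes of low genes. The fit was also run on simulated data. These held far fewer changed genes than were called here and no trend with level, so they do not check these calls. Errors are SE for log2 fold changes and SD for levels.

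Members and lists were chosen with earlier results of these data known. Values per library are given for the 3 members of smallest p in each complex, all members that fell, and both genes of each pair, and for up to 3 genes per list. Those named for other reasons were chosen after their values were seen. Libraries of 1 number share a batch per the labels, which pairs them. Their deviations from the group means correlated at 0.0859, 0.0120 and 0.189. The alternatives were other pseudocounts, filters, scalings and models, the batch block, and leaving out each library.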

Additional observations from a re-analysis of the deposited data

How the results depend on the processing

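The counts of members that rose stayed within 1.5 times of 34 in all 17 alternatives, and the count that fell moved from 3 to 5 after rescaling to TPM. Leaving out each library in turn gave 27 to 32 members higher and 3 lower. The members' median of 0.13 moved to 0.08 on TPM, 0.20 under median centring and 0.09 under quantile normalization, and ran from 0.12 to 0.14 over the omitted libraries. Over all genes, 3209 fell, and 2042 with a mean of at least 5 FPKM required, where fewer genes are tested. With the replicate number (batch) as a block 34 members rose and 3 fell. The block ended the calls of Eif1a, Eif2b3, Rptor and Mtif3 and added Eef1akmt4 and Eif2a, and it changed no other call of a member. Log2 fold changes that turned sign on the TPM scale were Eif2b4 −0.03, Eif3h −0.01, Eif3k −0.02, Eif4ebp3 −0.04, Eif4h −0.01, Eif5b −0.03, Paip1 −0.03 and Rps6kb1 −0.04. Log2 fold changes that turned sign under median centring were Eif1 0.02, Eif1b 0.05, Eif3f 0.03, Eif4b 0.02, Eif4ebp2 0.05, Cyfip1 0.03, Mknk2 0.04, Mrrf 0.04 and Sepsecs 0.01. Log2 fold changes that turned sign under quantile normalization were Eef2k 0.04, Eefsec 0.01, Eif2d 0.08, Eif3a −0.03, Eif3h −0.04, Eif3k −0.02, Eif4h −0.03, Gfm2 0.10, Gspt2 0.09, Guf1 0.03, Mrrf 0.07, Mtrf1l 0.08 and Sepsecs 0.13. Log2 fold changes that turned sign with the trend in level and length removed were Eef1a1 −0.01, Eef2k 0.03, Eefsec 0.01, Eif2d 0.07, Eif3h −0.06, Eif3k −0.04, Eif4h −0.03, Gfm2 0.09, Gspt2 0.16, Guf1 0.02, Mrrf 0.07, Mtif3 0.0039, Mtrf1l 0.10 and Sepsecs 0.12. The log2 fold change of Eef2 was −0.00374 under quantile normalization. Of these genes Eef1a1, Eef2 and Mtif3 had been called, and the cause was not tested. Over the omitted libraries, the log2 fold change turned sign for genes not called, with ranges of Eif1b −0.06 to 0.05, Eif2b4 −0.05 to 0.06, Eif3f −0.07 to 0.01, Eif3j2 −0.74 to 0.21, Eif3k −0.02 to 0.04, Eif4ebp2 −0.04 to 0.00283, Eif4ebp3 −0.04 to 0.03, Eif5b −0.01 to 0.03, Gspt2 −0.21 to 0.00161, Mrrf −0.08 to 0.04, Rps6kb1 −0.03 to 0.02 and Sepsecs −0.10 to 0.01. The difference between the groups in a pair's log2 ratio turned sign for 3 pairs, with ranges of Eif4a1 over Eif4a2 −0.00477 to 0.01, Eif1 over Eif1b −0.09 to 0.01 and Eif3j1 over Eif3j2 −0.01 to 1.04. The difference between the groups (knockdown minus scrambled) in the log2 ratio of Eif4a1 over Eif4a2 was −0.04 under quantile normalization. Genes of few fragments, such as Eif3j2 with 98 in its lowest library, limit what can be seen.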
